A study of Mus musculus with 4 samples.

Results

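The 10 genes described here code for ligands of the tumour necrosis factor (TNF) superfamily by which lymphoid tissue inducer (LTi) cells act on stroma and B cells. They are Lta, Ltb, Tnf, Tnfsf4, Tnfsf8, Tnfsf10, Tnfsf11, Tnfsf13, Tnfsf13b and Tnfsf14, chosen by name and not by their values, and all 10 were found among the 27179 genes of the deposited table. Expression was measured by RNA sequencing in LTi cells sorted from the lamina propria of the small intestine of C57BL/6 mice as live, lineage-negative cells with CD127 and CCR6 and without KLRG1, NK1.1 and NKp46. The 4 libraries came from mice with floxed Gata3 alleles and VavCre, Gata3fl/fl-VavCre (labelled Gata3-KO, 2 libraries) and from Gata3+/+ mice (labelled Ctrl, 2 libraries). Vav regulatory sequences drive Cre throughout the blood lineage, so floxed Gata3 can be deleted in T cells and other blood cells as well as in LTi cells. Age, sex, the number of animals behind a library and whether the Ctrl mice carried Cre are not given in the labels, so the p-values measure only the spread between these libraries, which may be technical. The study's title concerns what innate lymphoid cells do for gut B cells, and the comparison here sets each ligand's RNA in Gata3-KO LTi cells against that in Ctrl LTi cells.

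TNF superfamily ligands are trimeric, mostly membrane-anchored proteins, some of which are also shed or secreted. A membrane heterotrimer of lymphotoxin alpha and lymphotoxin beta engages the lymphotoxin beta receptor on stromal cells, which signals through the non-canonical NF-kB pathway and is needed for lymph nodes, Peyer's patches and isolated lymphoid follicles to form. LTi cells are known for this signal and for RANKL, which acts on stromal cells and on the epithelium above gut lymphoid follicles, and BAFF and APRIL are the survival and class-switch ligands of B cells.

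The level of a gene was taken as log2(RPKM + 1), where RPKM are reads scaled to the length of the gene and the total of the library. This scale, the one deposited, understates the fold change of low genes. All genes were tested together in limma, and a gene was called when its adjusted p (Benjamini-Hochberg over 14266 tested genes) was under 0.05. On the deposited scale the median tested gene lay 0.43 log2 units higher in Gata3-KO libraries. After median-ratio scaling, which divides each library by the median ratio of its genes to their geometric mean over the libraries, that shift was 0.04. Differences are therefore given on both scales.

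The Gata3-KO libraries held 24315878 and 23973995 reads and the Ctrl libraries 14294708 and 12670034 reads, so depth and genotype cannot be told apart. Gata3 was measured at 34.5 and 23.3 RPKM in Gata3-KO cells, against 84.3 and 50.7 RPKM in Ctrl cells, and it did not pass the test (adjusted p = 0.0904 in limma). The groups did not overlap. Reads are counted over the whole gene, so these values do not show whether the floxed exons were lost. All 10 LTi markers examined, among them Il7r, Ccr6 and Kit, had reads in every library, and they summed to 845 and 894 RPKM in Gata3-KO and 1239 and 721 RPKM in Ctrl libraries. Of the 10, Cd4 fell, at 8.80 and 12.3 RPKM in Gata3-KO and 36.5 and 53.0 RPKM in Ctrl libraries (adjusted p = 0.0256 as deposited and 0.0485 after median-ratio scaling in limma), and 7 of the 10 were lower in both Gata3-KO than in both Ctrl libraries after median-ratio scaling, against 25.6% of all tested genes. Markers of other cells were present too. The 12 B and plasma cell markers summed to 3616 and 1990 RPKM in Gata3-KO and 196 and 396 RPKM in Ctrl libraries, and Cr2 was at 0 in a Ctrl library. On the deposited scale 12 of 12 were called higher in Gata3-KO, and after median-ratio scaling 1 of 12, Ighm. The 12 epithelial markers summed to 1467 and 2153 RPKM in Gata3-KO and 382 and 221 RPKM in Ctrl libraries, and Lgr5 was at 0 in a Ctrl library. Of these 9 of 12 were called higher as deposited and 3 of 12 (Olfm4, Epcam and Cdh1) after median-ratio scaling. The 12 T cell markers summed to 828 and 496 RPKM in Gata3-KO and 278 and 172 RPKM in Ctrl libraries, with none at 0. Of these 5 of 12 were called higher as deposited and 0 after median-ratio scaling. Over all tested genes 8.3% were called higher as deposited and 0.582% after median-ratio scaling. Without regard to calls, many of these markers stayed higher in both Gata3-KO libraries after median-ratio scaling. This held for 12 of 12 B and plasma cell, 10 of 12 epithelial and 7 of 12 T cell markers, against 29.8% of all tested genes. Of the T cell markers 2 of 12 were lower in both. The 10 NK and ILC1 markers summed to 56.0 and 36.1 RPKM in Gata3-KO and 62.2 and 116 RPKM in Ctrl libraries, and Klra8 was at 0 in all. Of these 10 markers 7 were tested. On the deposited scale 2 were called lower, Klrk1 and Ncr1, against 0.687% of all tested genes. After median-ratio scaling 1 was called lower, Klrk1, against 0.435%. Klrk1 was at 0.525 and 0.481 RPKM in Gata3-KO and 21.4 and 25.1 RPKM in Ctrl libraries. The stromal markers summed to 38.3 and 65.5 RPKM in Gata3-KO and 39.4 and 99.1 RPKM in Ctrl libraries, with none called.

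All 10 ligands passed the filter on low values and were tested. On the deposited scale 1 of the 10, Tnfsf4, was called higher in Gata3-KO cells and 0 were called lower (2 of the 10 had an unadjusted p under 0.05), against 8.3% of all tested genes called higher and 0.687% called lower. After median-ratio scaling none of the 10 was called in limma, although 5 had an unadjusted p under 0.05, and limma-voom on the reads recovered from the values called 0 of the 10 on either scale. The background after median-ratio scaling was 0.582% called higher and 0.435% called lower. In limma on the deposited scale the members' median difference was 0.09, below the 0.43 of all tested genes, and after median-ratio scaling it was −0.28, against 0.04 for all tested genes.

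**Figure D1:**
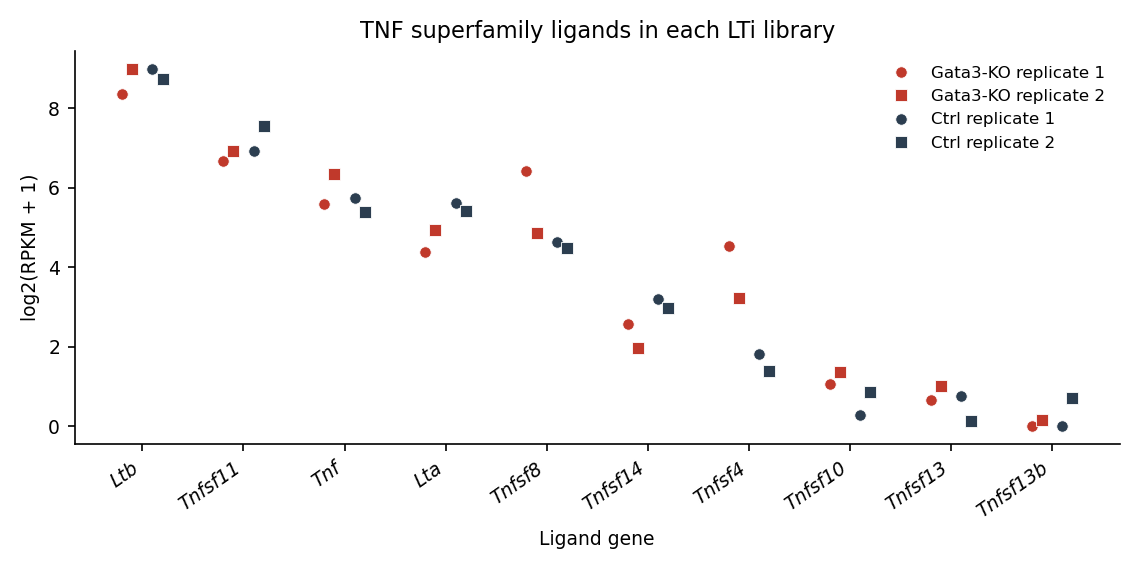
Level of each of the 10 ligands as log2(RPKM + 1) (vertical axis) in every library, with Gata3-KO libraries in red left of Ctrl libraries in dark blue and replicates 1 and 2 as circles and squares. Ltb and Tnfsf11 lead in all 4 libraries, and Tnfsf4 is higher in both Gata3-KO libraries than in both Ctrl libraries.

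Ltb was the most abundant of the ligands and Tnfsf11 the next in each of the 4 libraries, compared per length as RPKM. Ltb made up 53.5% and 64.9% of the summed RPKM of the 10 ligands in Gata3-KO libraries and 66.5% and 58.6% in Ctrl libraries, and Tnfsf11 made up 16.6% and 15.4% in Gata3-KO and 15.7% and 25.7% in Ctrl libraries. The sum itself was 608 and 779 RPKM in Gata3-KO and 768 and 730 RPKM in Ctrl libraries, so the genotypes overlapped. Tnf, Lta and Tnfsf8 came next in 3 of the 4 libraries, while in Gata3-KO replicate 1 Tnfsf4, at 22.3 RPKM, lay above Lta. In Ctrl libraries Tnf and Lta did not differ beyond their spread, with Tnf at 52.5 and 41.2 RPKM and Lta at 48.3 and 41.8 RPKM. In Gata3-KO libraries Lta lay below Tnf in both. Tnfsf10, Tnfsf13 and Tnfsf13b stayed under 2 RPKM in every library.

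Lta, Tnf and Ltb lie side by side on chromosome 17 within 11072 bases of the major histocompatibility region (GRCm38), Ltb at 35194507 to 35196305 on the plus strand, and Tnf at 35199367 to 35202007 and Lta at 35203165 to 35205578 on the minus strand. Their promoters are shown because the ratios between these neighbouring genes are given next. Each line gives the 250 bases before the transcription start in the RefSeq table (GRCm38.p6), which for Lta lies inside the annotated span of the gene, 5′ to 3′ on the gene's own strand. They cover chr17:35194257-35194506 for Ltb, chr17:35202008-35202257 for Tnf and chr17:35205352-35205601 for Lta. Capitals mark matches, on either strand, to TATAAA (the TATA box) or to GGNNTTTCC (part of a kappa B site).
Ltb: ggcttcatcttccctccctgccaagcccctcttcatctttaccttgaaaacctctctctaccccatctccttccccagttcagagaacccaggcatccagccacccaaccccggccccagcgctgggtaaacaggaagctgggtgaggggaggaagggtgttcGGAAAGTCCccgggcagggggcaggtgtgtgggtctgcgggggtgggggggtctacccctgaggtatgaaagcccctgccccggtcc
Tnf: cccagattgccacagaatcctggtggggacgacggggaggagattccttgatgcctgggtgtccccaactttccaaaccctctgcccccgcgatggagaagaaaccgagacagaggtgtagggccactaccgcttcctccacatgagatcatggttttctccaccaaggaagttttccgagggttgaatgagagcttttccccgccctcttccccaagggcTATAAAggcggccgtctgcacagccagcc
Lta: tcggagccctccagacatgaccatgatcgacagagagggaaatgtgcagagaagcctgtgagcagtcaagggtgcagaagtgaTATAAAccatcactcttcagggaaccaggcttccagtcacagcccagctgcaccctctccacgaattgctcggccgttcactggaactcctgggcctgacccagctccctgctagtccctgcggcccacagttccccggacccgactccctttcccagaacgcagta

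The Tnf window held TATAAA 29 to 24 bases before the start, and the Lta window held it 167 to 162 bases before the start. The Ltb window held GGNNTTTCC on the opposite strand, 87 to 79 bases before the start. No matches overlapped in the windows shown. The RefSeq table can give a gene more than 1 promoter, and the first listed for each gene was counted. Among these 27025 windows of 250 bases, 13.0% held TATAAA and 4.84% held GGNNTTTCC. The sequence GATAA, 1 form of the site that GATA factors bind, was also searched on both strands. It is in none of the windows shown, against 23.0% of the 27025 windows. Of the other ligand genes, Tnfsf13b had it. The shorter GATA was not searched, and its letters occur in the Lta window where the marked TATAAA begins. A match is a description of the letters only. Of the 10 ligand genes 9 have a promoter in the RefSeq table used.

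Lta, which codes for lymphotoxin alpha (Entrez 16992), was at 20.01 and 29.5 RPKM in Gata3-KO cells and at 48.3 and 41.8 RPKM in Ctrl cells. Both Gata3-KO libraries lay below both Ctrl libraries. The means were 24.7 ± 6.69 RPKM in Gata3-KO and 45.0 ± 4.58 RPKM in Ctrl cells (SD, n = 2 each). The difference in log2(RPKM + 1) was −0.86 ± 0.30 (SE, 95% interval −1.58 to −0.13) with an adjusted p of 0.118 in limma, so it did not pass. After median-ratio scaling the difference was −1.44 ± 0.24 (95% interval −2.05 to −0.83), with an adjusted p of 0.0641 in limma. In bulk RNA, fewer cells of a type and less RNA per cell cannot be told apart, which holds for every value here.

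Ltb, which codes for lymphotoxin beta, the chain that holds lymphotoxin at the membrane (Entrez 16994), was at 325 and 506 RPKM in Gata3-KO cells and at 511 and 428 RPKM in Ctrl cells. The second Gata3-KO library lay between the Ctrl libraries and the first below them, so the groups overlapped. The difference of −0.20 ± 0.35 (SE, 95% interval −1.04 to 0.63) did not pass (adjusted p = 0.726 in limma). After median-ratio scaling it was −0.80 ± 0.26 (adjusted p = 0.168 in limma), with both Gata3-KO libraries below both Ctrl libraries.

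Tnf, the soluble and membrane-bound cytokine of inflammation (Entrez 21926), was at 47.2 and 81.0 RPKM in Gata3-KO cells and at 52.5 and 41.2 RPKM in Ctrl cells. The first Gata3-KO library lay between the Ctrl libraries. The difference of 0.40 ± 0.34 (SE, 95% interval −0.43 to 1.24; adjusted p = 0.47 in limma) changed sign to −0.18 ± 0.28 after median-ratio scaling (adjusted p = 0.745 in limma), so no direction is given for Tnf.

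Ratios of ligands in the same library do not depend on how libraries are scaled. The Lta level was 0.0615 and 0.0582 of the Ltb level in Gata3-KO libraries, against 0.0945 and 0.0976 in Ctrl libraries. On the log2 scale this ratio was −4.06 ± 0.06 in Gata3-KO and −3.38 ± 0.03 in Ctrl cells (SD, n = 2 each), a difference of −0.68 that exceeds the spread within either genotype. The Tnf level was 0.145 and 0.160 of the Ltb level in Gata3-KO libraries and 0.103 and 0.0963 in Ctrl libraries, a log2 difference of 0.62, also beyond the spread. Lta over Tnf, a ratio chosen after the values were seen, was 0.424 and 0.364 in Gata3-KO and 0.918 and 1.01 in Ctrl libraries, a log2 difference of −1.30. With 2 libraries in each genotype the exact permutation test (two-sided) cannot go below p = 0.333, the value each of these ratios had. These ratios therefore do not pass a test at this sample size, and a ratio does not show which of its genes differed. Separation was not particular to Lta and Tnf. The ratios to Ltb of Tnfsf4, Tnfsf8, Tnfsf10, Tnfsf13 and Tnfsf14 did not overlap between genotypes either, while that of Tnfsf11 did. How often ratios to Ltb separate over all genes was not examined.

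**Figure D2:**
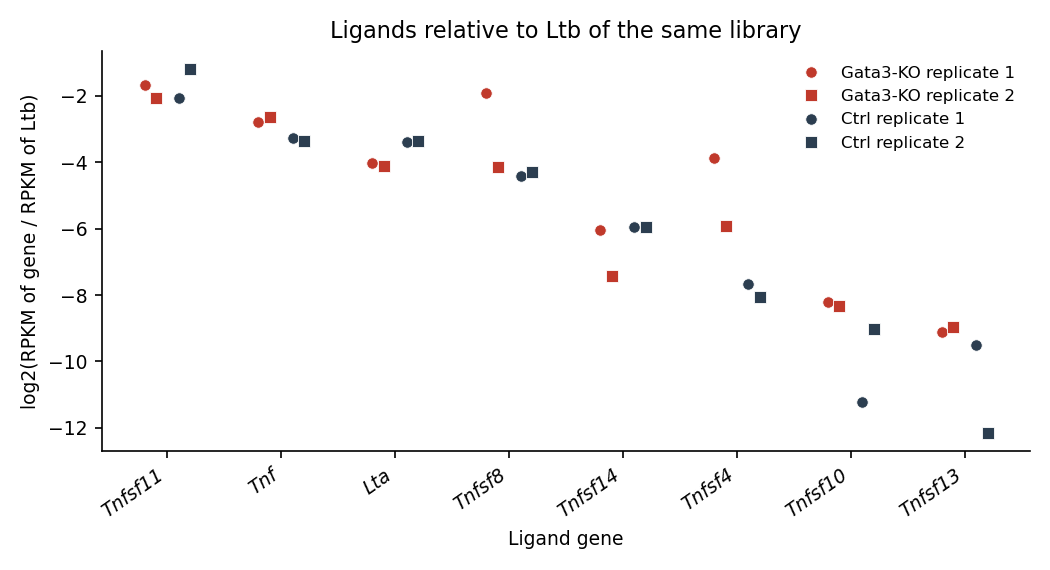
log2 of each ligand's RPKM over the RPKM of Ltb in the same library (vertical axis), for the 8 ligands with reads in all 4 libraries, with Gata3-KO in red left of Ctrl in dark blue. Lta sits lower and Tnf higher in both Gata3-KO libraries, while Tnfsf11 overlaps between genotypes.

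None of the 5 tested neighbours of the locus was called. Lst1, a small membrane protein gene of myeloid cells, was at 5.54 and 13.8 RPKM in Gata3-KO and 7.74 and 3.60 RPKM in Ctrl libraries. The other neighbours, Nfkbil1, Aif1, Atp6v1g2 and the RNA helicase gene Ddx39b, differed by −0.22, 0.21, 0.42 and 0.51 log2 units on the deposited scale. After median-ratio scaling the differences of the same genes were −0.77, −0.28, −0.00 and −0.07, and that of Lst1 was 0.12.

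Tnfsf14, which codes for LIGHT, another ligand of the lymphotoxin beta receptor and of the herpesvirus entry mediator (Entrez 50930, chromosome 17: 57189474 to 57194181), was at 4.93 and 2.92 RPKM in Gata3-KO cells and at 8.24 and 6.88 RPKM in Ctrl cells. Both Gata3-KO libraries lay below both Ctrl libraries. The difference was −0.82 ± 0.35 (SE, 95% interval −1.67 to 0.02; adjusted p = 0.174 in limma). It was −1.32 ± 0.34 after median-ratio scaling, with an adjusted p of 0.115 in limma. Its log2 ratio to Ltb was −6.04 and −7.44 in Gata3-KO and −5.95 and −5.96 in Ctrl libraries, and the exact permutation test gave its smallest possible p of 0.333.

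Tnfsf11, the RANKL gene (Entrez 21943, chromosome 14: 78277446 to 78308043), was at 101 and 120.3 RPKM in Gata3-KO cells and at 120.8 and 187 RPKM in Ctrl cells. The groups did not overlap, but the second Gata3-KO library and the first Ctrl library nearly coincided. The difference was −0.44 ± 0.32 (SE, 95% interval −1.22 to 0.33; adjusted p = 0.391 in limma) and −1.04 ± 0.32 after median-ratio scaling (adjusted p = 0.152 in limma). Without Ctrl replicate 2 the deposited difference was −0.13. Relative to Ltb the genotypes overlapped, with log2 ratios of −1.69 and −2.07 in Gata3-KO and −2.08 and −1.19 in Ctrl libraries (p = 1 in the exact permutation test).

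Tnfsf4 codes for OX40L, the ligand of the co-stimulatory receptor OX40 on T cells (Entrez 22164, chromosome 1: 161395438 to 161418206). It was at 22.3 and 8.32 RPKM in Gata3-KO cells, from 873 and 321 reads, against 2.52 and 1.62 RPKM in Ctrl cells, from 58 and 33 reads. Both Gata3-KO libraries lay above both Ctrl libraries, and the first was 2.68 times the second. The means were 15.3 ± 9.89 RPKM in Gata3-KO and 2.07 ± 0.638 RPKM in Ctrl cells (SD, n = 2 each), a 7.40-fold difference. Tnfsf4 rose by 2.28 ± 0.49 log2 units on the deposited scale (SE, 95% interval 1.08 to 3.48; adjusted p = 0.0447 in limma). The call was lost after median-ratio scaling, where the difference was 1.81 ± 0.53 (95% interval 0.45 to 3.16; adjusted p = 0.142 in limma). With a Gata3-KO library left out, the deposited difference was 1.62 without replicate 1 and 2.94 without replicate 2. With a Ctrl library left out it was 2.49 without replicate 1 and 2.07 without replicate 2. These fits leave 1 library in a genotype, so a call or its loss is not read from them.

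Tnfsf8, the CD30 ligand gene, whose product co-stimulates lymphocytes (Entrez 21949, chromosome 4: 63831202 to 63861508), was at 85.4 and 28.4 RPKM in Gata3-KO cells and at 23.7 and 21.6 RPKM in Ctrl cells. The first Gata3-KO library was 3.01 times the second, which lay just above the Ctrl libraries. The difference of 1.09 ± 0.52 (SE, 95% interval −0.18 to 2.37) did not pass (adjusted p = 0.215 in limma). It was 0.51 ± 0.57 after median-ratio scaling, with overlapping groups. Without Gata3-KO replicate 1 it was 0.31 as deposited and −0.32 after median-ratio scaling.

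The first Gata3-KO library, in which Tnfsf4 and Tnfsf8 were highest, also had the highest level of 8 of the 12 T cell markers. Cd247, Lat, Trbc1 and Trbc2 were not highest there, with Lat at 144 and 250.3 RPKM in Gata3-KO and 72.4 and 48.3 RPKM in Ctrl libraries. The genes that follow were picked after their values were seen. Cd40lg, the CD40 ligand gene of helper T cells, was at 38.3 and 0.768 RPKM in Gata3-KO and 2.29 and 1.39 RPKM in Ctrl libraries. Tnfrsf4, the OX40 receptor gene, was at 73.9 and 1.01 RPKM in Gata3-KO and 0.545 and 4.78 RPKM in Ctrl libraries. Cd3d, a CD3 chain of T cells, was at 62.0 and 2.35 RPKM in Gata3-KO and 2.58 and 3.86 RPKM in Ctrl libraries. Trdc was at 63.9 and 2.42 RPKM in Gata3-KO and 0.950 and 0.714 RPKM in Ctrl libraries. In the second Gata3-KO library Tnfsf4 was 8.32 RPKM while Cd40lg, Cd3d and Tnfrsf4 were below 1 or both of the Ctrl libraries, and Cd3g was at 53.0 RPKM there, against 4.65 and 5.63 RPKM in Ctrl libraries. On the deposited scale Tnfsf4 and Tnfsf8 were higher in both Gata3-KO than in both Ctrl libraries. So were 12 of 12 B and plasma cell markers, 11 of 12 epithelial markers and 7 of 12 T cell markers. Of all tested genes 54% were higher in both. The part of T cell, B cell or epithelial RNA in the Tnfsf4 and Tnfsf8 values was not tested.

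**Figure D3:**
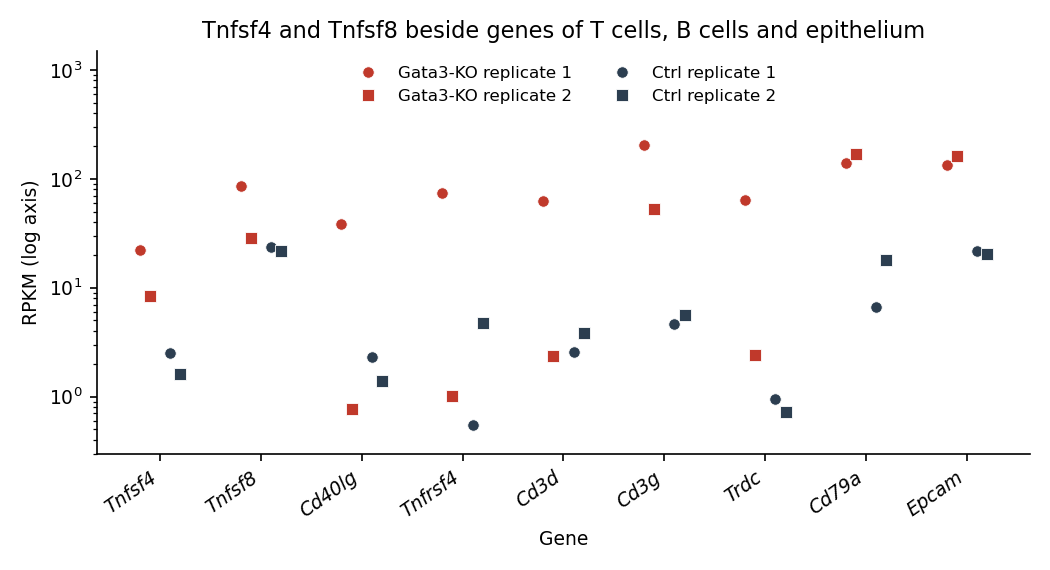
RPKM on a log axis of Tnfsf4, Tnfsf8, the T cell genes Cd40lg, Tnfrsf4, Cd3d, Cd3g and Trdc, the B cell gene Cd79a and the epithelial gene Epcam in every library, with Gata3-KO in red left of Ctrl in dark blue. Gata3-KO replicate 1 (red circle) is highest for Tnfsf4, Tnfsf8 and all 5 T cell genes shown, which were picked after their values were seen. Of the 12 T cell markers examined 8 were highest in that library, while Cd247, Lat, Trbc1 and Trbc2 were not. Both Gata3-KO libraries are above both Ctrl libraries for Cd79a and Epcam.

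Tnfsf10, which codes for the death receptor ligand TRAIL (Entrez 22035, chromosome 3: 27317077 to 27339665), was at 1.09 and 1.57 RPKM in Gata3-KO cells and at 0.212 and 0.830 RPKM in Ctrl cells. These values rest on 131 and 186 reads in Gata3-KO and 15 and 52 reads in Ctrl libraries. Both Gata3-KO libraries lay above both Ctrl libraries on the deposited scale, and the difference of 0.64 ± 0.33 (SE) did not pass (adjusted p = 0.245 in limma). After median-ratio scaling the groups overlapped and the difference was 0.36 ± 0.34 (adjusted p = 0.58 in limma).

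The B cell ligands were barely measured. Tnfsf13, the APRIL gene (Entrez 69583, chromosome 11: 69682577 to 69685554), was at 0.588 and 1.02 RPKM in Gata3-KO cells and at 0.708 and 0.0940 RPKM in Ctrl cells. The groups overlapped (difference 0.39 ± 0.31, adjusted p = 0.439 in limma). Tnfsf13os, an RNA gene at 69682032 to 69691141 on the same chromosome that overlaps Tnfsf13, had 53 and 63 reads in Gata3-KO and 8 and 3 reads in Ctrl libraries. Smart-seq2 libraries do not mark strand, so reads where these genes overlap cannot be told apart and the Tnfsf13 values are uncertain. Tnfsf13b, the BAFF gene (Entrez 24099, chromosome 8: 10006229 to 10036000), had 0 and 15 reads in Gata3-KO and 0 and 42 reads in Ctrl libraries. A count of 0 allows up to 0.0242 RPKM in Gata3-KO replicate 1 and up to 0.0412 RPKM in Ctrl replicate 1 (3 reads, counting error only). In the other library of each genotype it was at 0.123 RPKM in Gata3-KO and 0.650 RPKM in Ctrl cells. Tnfsf13b did not pass the test, and its libraries varied from 0 to 42 reads within a genotype (−0.28 ± 0.27, adjusted p = 0.533 in limma). Myeloid and dendritic cell markers, genes of cells known to make BAFF and APRIL, summed to 104 and 256 RPKM in Gata3-KO and 76.9 and 93.0 RPKM in Ctrl libraries. Of these 12 markers 11 were tested, and Fcgr1 was at 0 in 1 library of each genotype. As deposited 2 were called higher (Siglech and Cybb), against 8.3% of all tested genes. After median-ratio scaling 1 was called higher, Siglech, against 0.582%. None was called lower on either scale. As deposited 4 were higher in both Gata3-KO libraries and 2, Batf3 and Xcr1, lower in both, against 54% and 7.56% of all tested genes. The part of these cells in the Tnfsf13 and Tnfsf13b values was not tested.

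Counted over the 10 ligands on the deposited scale, Tnfsf4, Tnfsf8 and Tnfsf10 were higher in both Gata3-KO than in both Ctrl libraries and Lta, Tnfsf11 and Tnfsf14 were lower in both. Of all tested genes 54% were higher in both and 7.56% lower in both. After median-ratio scaling 1 ligand, Tnfsf4, was higher in both and 4, Lta, Ltb, Tnfsf11 and Tnfsf14, were lower in both, against 29.8% and 25.6% of all tested genes. The lower ligands on that scale are the lymphotoxin chains, LIGHT and RANKL, and none of those differences passed after adjustment over all genes. Being lower in both was not particular to them, as 7 of 10 LTi markers and 6 of 8 non-canonical NF-kB genes were too.

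**Figure D4:**
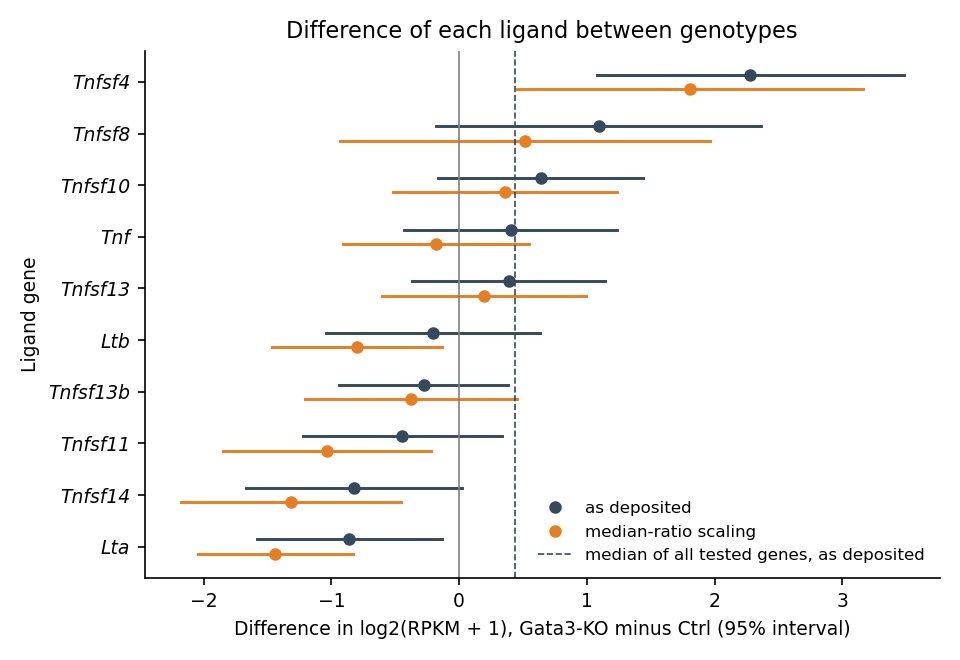
Difference in log2(RPKM + 1), Gata3-KO minus Ctrl, of each ligand with its 95% interval from limma, as deposited (dark) and with median-ratio scaling (orange); the dashed line is the median of all tested genes at 0.43. The interval of Tnfsf4 lies above 0 and that of Lta below 0 on both scales, while those of Ltb, Tnfsf11 and Tnfsf14 lie below 0 after median-ratio scaling only.

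The rest of the pathway gave few calls. Of 8 other ligands of the superfamily 4 were tested and none was called in limma on either scale. By level they were led by Cd40lg, by Tnfsf9 (the 4-1BB ligand), at 9.90 and 3.49 RPKM in Gata3-KO and 3.81 and 2.82 RPKM in Ctrl libraries, and by Fasl, at 3.49 and 0.323 RPKM in Gata3-KO and 0.795 and 6.81 RPKM in Ctrl libraries. Cd70 and Eda had no reads in any library.

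Of 12 receptors of the ligands 11 were tested. On the deposited scale 1 was called higher and none lower, against 8.3% and 0.687% of all tested genes. After median-ratio scaling none was called. Tnfrsf13c, the BAFF receptor of B cells, was at 16.8 and 23.9 RPKM in Gata3-KO and 0.220 and 2.48 RPKM in Ctrl libraries, a difference of 3.35 (adjusted p = 0.0256 in limma) that became 2.91 after median-ratio scaling (adjusted p = 0.0882 in limma). On the deposited scale 12 of 12 B and plasma cell markers were called higher in the same Gata3-KO libraries and 1 of 12 after median-ratio scaling. After that scaling 12 of 12 still lay higher in both Gata3-KO than in both Ctrl libraries. The part of B cell RNA in the Tnfrsf13c value was not tested. Ltbr, the lymphotoxin beta receptor gene, was at 9.12 and 14.99 RPKM in Gata3-KO and 4.15 and 7.62 RPKM in Ctrl libraries and did not pass (adjusted p = 0.176 in limma).

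None of the 8 genes of the non-canonical NF-kB pathway was called. Their median difference was −0.18 as deposited and −0.76 after median-ratio scaling, where 6 of the 8 were lower in both Gata3-KO than in both Ctrl libraries, against 25.6% of all tested genes. As deposited 3 of the 8 were lower in both and 2 higher in both, against 7.56% and 54% of all tested genes. Nfkb2, which codes for the p100 precursor, was at 272 and 298 RPKM in Gata3-KO and 365 and 342 RPKM in Ctrl libraries, and its partner Relb at 205 and 224 RPKM in Gata3-KO and 279 and 243 RPKM in Ctrl libraries. After median-ratio scaling they differed by −0.90 and −0.87, with adjusted p of 0.0929 and 0.0958 in limma. Birc3, an inhibitor of the pathway, was at 131 and 146 RPKM in Gata3-KO and 218 and 116 RPKM in Ctrl libraries.

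None of the 10 genes of ligand processing and mRNA decay was called either. Zfp36, which codes for tristetraprolin, a protein that destabilises Tnf mRNA, was at 658 and 827 RPKM in Gata3-KO and 378 and 316 RPKM in Ctrl libraries (difference 1.09, adjusted p = 0.0781 in limma, and 0.50 with adjusted p = 0.259 after median-ratio scaling). Zfp36l1, its relative, was at 721 and 732 RPKM in Gata3-KO and 801 and 546 RPKM in Ctrl libraries. Furin, a gene of a protease that cleaves several ligands of the superfamily, was at 148 and 102 RPKM in Gata3-KO and 209 and 138 RPKM in Ctrl libraries.

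**Figure D5:**
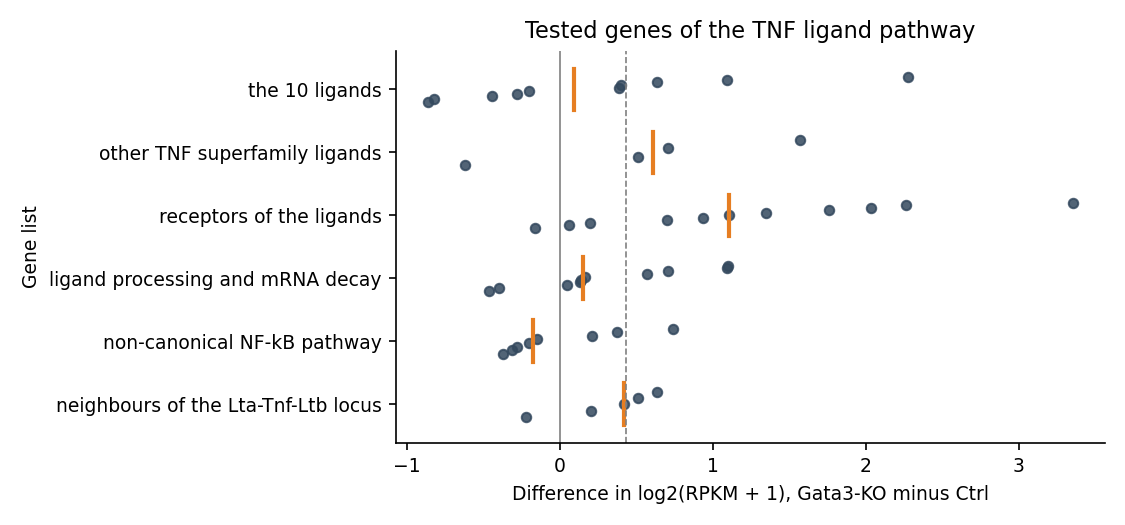
Difference in log2(RPKM + 1), Gata3-KO minus Ctrl, on the deposited scale for each tested gene (points) of the 10 ligands and of 5 related lists, with the median of each list as an orange bar and the median of all tested genes as a dashed line. The highest point is the receptor gene Tnfrsf13c at 3.35, and the 10 ligands run from −0.86 for Lta to 2.28 for Tnfsf4.

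Other effector genes measured in these libraries passed the test. Of 6 examined and 5 tested, Il17a and Areg rose and Il22 fell on the deposited scale, with differences of 3.28, 2.29 and −3.31 (adjusted p of 0.0109, 0.029 and 0.0211 in limma). Il17a and Il22 passed after median-ratio scaling too, at 2.71 and −3.90, each with an adjusted p of 0.0417 in limma. The difference between these genes and the ligands was not tested, nor was the part of other cells' RNA in their values.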

How the data were processed

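RNA of the 4 LTi libraries was purified by miRNeasy Micro (Qiagen) and sequenced as Smart-seq2 libraries, per the labels' protocols. Subread, featureCounts and the build mm10 are named in the submitters' processing notes; the sources used here give neither versions nor annotation. The authors deposited log2 values, which by their own spacing are log2(RPKM + 1) with 0.0001 added, scaled to each library's total. The planned limma test fits this unit.

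Whole reads, gene lengths and library totals were recovered from the values (100% of 19047 genes with reads came out whole within 0.001 reads in all 4 libraries; the recovered reads were 98.8%, 98.6%, 98.9% and 99.1% of the totals of Gata3-KO 1 and 2 and Ctrl 1 and 2). Lengths were chosen to make reads whole, guided by GENCODE, so this is no check of each length. Floors cover counting error only.

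Genes with at least 0.5226 CPM in 2 libraries and 15 reads in all (14266) were tested with limma 3.58.1 (trend, robust) in R 4.3.3, two-sided, pseudocount 1, adjusted by Benjamini-Hochberg, threshold 0.05; the script was tested on simulated data. Symbols and coordinates came from RefSeq by Entrez identifier (GRCm38.p6, 25275 identifiers found). Named genes were all 10 ligands, Gata3, the locus neighbours, up to 4 called genes per list and up to 3 by RPKM where none was called. Ltbr, Il7r, Ccr6, Kit, Cd3d, Cd3g, Trdc, Trbc1, Trbc2, Tnfrsf4, Cd79a, Epcam, Tnfsf13os and genes at 0 were added after their values were seen. The ligands and lists were chosen with earlier results of these data known. Alternatives were other scalings, filters, pseudocounts, limma-voom, a replicate block and left-out libraries. The other steps ran in Python 3.11.15 (numpy 2.4.6, pandas 2.3.3, matplotlib 3.10.9).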

Additional observations from a re-analysis of the deposited data

How the results depend on the processing

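Lta, Tnfsf11 and Tnfsf14 lay below 0 and Tnfsf4 above 0 under all 18 alternatives, with ranges of −1.63 to −0.59 for Lta, −1.45 to −0.13 for Tnfsf11, −1.63 to −0.52 for Tnfsf14 and 1.09 to 2.94 for Tnfsf4. The adjusted p in limma ranged from 0.0613 to 0.426 for Lta. The 1 ligand called higher, Tnfsf4, passed with the replicate block and the filter of 5 CPM. The number called higher was 0 under TMM, median-ratio or upper-quartile scaling, without a filter, and with limma-voom, limma-voom with median-ratio scaling, a pseudocount of 0.1 and the block with median-ratio scaling; for Tnfsf4 the adjusted p ranged from 0.0224 to 0.479. Fits with a library left out have 1 library in a genotype, so their calls are not read for single ligands. No alternative called a ligand lower. Tnfsf13 and Tnfsf13b were not tested with the filter of 5 CPM.

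Tnf turned negative with median-ratio (−0.18), upper-quartile (−0.22) and TMM scaling (−0.21), limma-voom with median-ratio scaling (−0.19) and the replicate block with median-ratio scaling (−0.18). With a library left out it lay between 0.02 and 0.79 as deposited and, after median-ratio scaling, at −0.49 and 0.14 without a Gata3-KO library and at −0.11 and −0.29 without a Ctrl library. Ltb lay between −0.52 and 0.11 with a library left out, Tnfsf13b between −0.64 and 0.084, and after median-ratio scaling between −0.86 and 0.071. After median-ratio scaling with a library left out, Tnfsf8 lay between −0.32 and 1.36, Tnfsf10 between −0.018 and 0.76 and Tnfsf13 between −0.17 and 0.56. The ratio of Tnfsf11 to Ltb differed by −0.69 to 0.20 with a library left out, 0.20 without Ctrl replicate 2; the other ratios kept their direction under each alternative. The cause of these shifts was not tested.

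Over all genes, limma called 1282 as deposited, 140 under TMM, 145 under median-ratio and 179 under upper-quartile scaling, 851 with a pseudocount of 0.1, 26 with the replicate block and median-ratio scaling, and 0 with no filter (4336 at an unadjusted p under 0.05). limma-voom called 223, and 91 with median-ratio scaling. With a library left out the count was 0 to 0 as deposited (2413 to 3823 at an unadjusted p under 0.05) and 0 to 91 after median-ratio scaling, with 8 without Ctrl replicate 1; a lone library was assumed to vary like the others. The labels give both genotypes replicates 1 and 2. The deviations of same-numbered libraries from their genotype means did not go together (correlation −0.02 over genes). With 2 libraries in each genotype this is 1 contrast, so it cannot show whether same-numbered libraries were paired. The replicate block gave 1057 calls.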
